A study of Mus musculus with 6 samples.

Results

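Expression of 10 macrophage genes was examined in the colon of mice prone (OP) or resistant (OR) to obesity. The genes were *Retnla*, *F13a1*, *Mrc1*, *Cd163*, *Folr2*, *Csf1r*, *Adgre1*, *Cd68*, *Cx3cr1* and *Csf1*, and all 10 were found by symbol among the 17778 genes listed. They were chosen by name, with the OP and OR values of these same mice known, so the differences between the groups in these 10 genes are descriptions, and no p-value is given for a single one of them. The 6 mice, 3 OP and 3 OR, were wild-type male C57BL/6J mice fed a high-fat diet (60% fat) for 16 weeks and killed at 21 weeks of age. Of 42 mice on this diet, the 10 with the most weight gain were called OP and the 10 with the least were called OR. The groups therefore share strain, sex, diet and age and differ in the outcome by which they were sorted, and how 3 mice of each group were picked for sequencing is not given in the sources used here. Each value is an FPKM (fragments per kilobase of transcript, scaled to the mapped fragments of the library) as deposited, from RNA of colon tissue, and the stretch of colon taken is not given in the sources used here.

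Macrophages of the gut wall arise in large part from blood monocytes and depend on CSF1, which acts through its receptor CSF1R. Those next to blood vessels, nerves and in the submucosa can be long-lived and carry scavenger and uptake receptors such as CD163, the mannose receptor (encoded by *Mrc1*) and the folate receptor beta (encoded by *Folr2*). Interleukins 4 and 13, acting through the transcription factor STAT6, drive the state called alternative activation, of which RELM-alpha (encoded by *Retnla*) and the mannose receptor are widely used markers.

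In whole tissue, fewer cells of a type and less RNA per cell cannot be told apart. The FPKM values of a mouse summed to between 585350 and 600028, with 16287 to 16619 genes above 0. Colon markers were present in every mouse except for *Hoxd13*, and several differed widely between mice of the same group. *Hoxd13* was close to 0, at 0.16, 0.14 and 0.06 FPKM in OP mice and 0, 0.03 and 0.03 FPKM in OR mice, without overlap. Whether the stretch of colon taken differed between the groups was not tested. *Aqp8*, a water channel of colon surface cells, ranged from 39.4 to 1084 FPKM in OP mice and from 10.1 to 358 FPKM in OR mice. OP mouse 3 stood apart in *Cd79a*, a chain of the B cell receptor complex, at 39.8 FPKM against 3.05 to 5.67 FPKM in the other mice. Values without a mouse are given beside results that it moves.

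*Retnla* and the 4 scavenger, uptake and crosslinking genes *F13a1*, *Mrc1*, *Cd163* and *Folr2* were lower in every OP mouse than in every OR mouse. Values are given in the order of mouse 1, 2 and 3. *Retnla*, which encodes the secreted protein RELM-alpha, measured 5.75, 3.68 and 3.72 FPKM across OP mice against 14.1, 11.8 and 17.5 FPKM across OR mice. The highest OP mouse thus reached less than the lowest OR mouse, and the mean was 4.38 ± 1.18 in OP and 14.5 ± 2.91 in OR mice (SD, n = 3 each). The OR mean was 3.30 times the OP mean. On the log2(FPKM + 1) scale the fold change OP/OR of *Retnla* was -1.53 (standard error 0.23), the lowest of the 10 genes.

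*Folr2*, which encodes a folate receptor of tissue macrophages, measured 0.44, 0.08 and 0.73 FPKM across OP mice against 1.95, 2.09 and 3.56 FPKM across OR mice. The OR mean was 6.08 times the OP mean, the largest ratio of the 10 genes, but it rests on OP values close to 0, and the log2 fold change was -1.32 (standard error 0.26). *F13a1* encodes the A subunit of coagulation factor XIII, a crosslinking enzyme that tissue macrophages also make. It had 0.59, 0.41 and 0.8 FPKM in OP mice and 1.92, 2.37 and 2.72 FPKM in OR mice, with a log2 fold change of -1.06 (standard error 0.18).

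*Cd163*, the scavenger receptor for haemoglobin bound to haptoglobin, measured 0.44, 0.22 and 0.77 FPKM across OP mice against 1.72, 2.45 and 1.67 FPKM across OR mice. *Mrc1* had 0.91, 0.55 and 1.34 FPKM in OP mice and 2.01, 3.31 and 2.75 FPKM in OR mice. In both genes the groups did not overlap, and the log2 fold changes were -1.003 (standard error 0.21) for *Cd163* and -0.94 (standard error 0.23) for *Mrc1*. The mannose receptor is also made by lymphatic endothelium, so *Mrc1* is not a macrophage gene alone in whole tissue.

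The general macrophage genes had log2 fold changes nearer to 0. *Adgre1*, which encodes the surface protein most used to stain mouse macrophages, measured 0.84, 0.33 and 1.35 FPKM across OP mice against 1.55, 2.93 and 2.60 FPKM across OR mice. *Cd68*, which encodes a lysosomal glycoprotein, had 2.90, 1.77 and 3.51 FPKM in OP mice and 3.76, 5.21 and 5.24 FPKM in OR mice. The groups did not overlap in either gene, but the gap between the highest OP mouse and the lowest OR mouse was small in both, and after median-of-ratios scaling the groups overlapped in *Cd68*. The log2 fold change was -0.88 (standard error 0.27) for *Adgre1* and -0.64 (standard error 0.24) for *Cd68*. That of *Adgre1* was close to the -0.94 of *Mrc1*. With 0.1 in place of 1 added to the FPKM the order of these 2 genes reversed, at -1.51 for *Adgre1* and -1.48 for *Mrc1*.

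*Csf1r*, the receptor on which macrophages depend, measured 2.80, 2.14 and 5.96 FPKM across OP mice against 5.75, 7.87 and 6.61 FPKM across OR mice. OP mouse 3 was above OR mouse 1, so the groups overlapped, and the log2 fold change was -0.82 (standard error 0.31). The gene of its ligand, *Csf1*, which fibroblasts and endothelium express more than macrophages do, had 1.87, 1.41 and 2.77 FPKM in OP mice and 3.47, 3.39 and 3.13 FPKM in OR mice. Here the OR mice lay close together, at 3.33 ± 0.178 (SD, n = 3), above all OP mice, and the log2 fold change was -0.55 (standard error 0.21). *Cx3cr1*, the receptor for fractalkine found on monocyte-derived gut macrophages, had 1.01, 0.57 and 1.69 FPKM in OP mice and 1.45, 2.02 and 1.41 FPKM in OR mice. The groups overlapped in *Cx3cr1*, which had the log2 fold change nearest to 0 of the 10 genes at -0.36 (standard error 0.24), or -0.17 without OP mouse 2 and -0.56 without OP mouse 3.

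**Figure D1:**
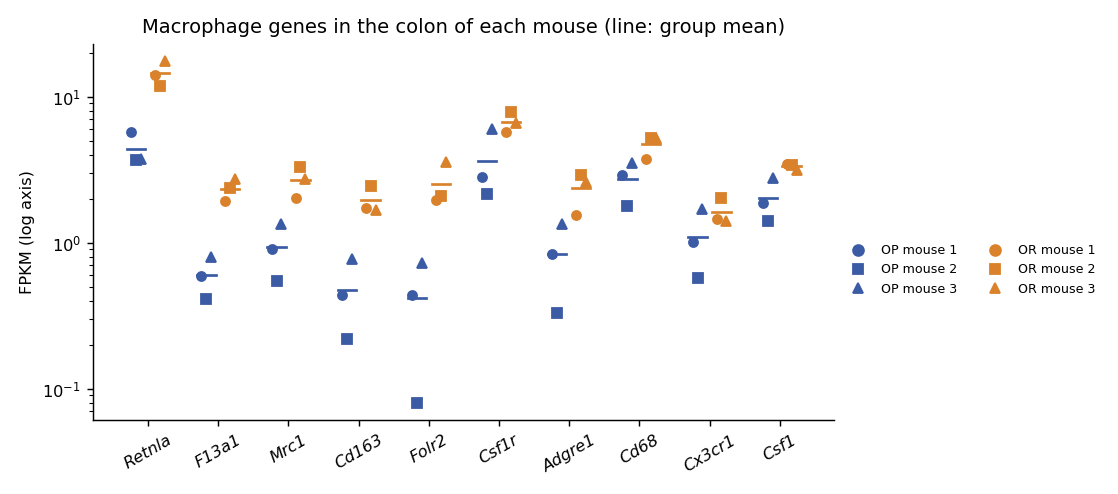
FPKM of the 10 macrophage genes in each mouse on a log axis, OP mice in blue and OR mice in orange, with a symbol for each mouse number and a line at the group mean. The colours do not overlap in 8 of the 10 genes, and in *Csf1r* and *Cx3cr1* the value of OP mouse 3 lies among those of the OR mice.

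The mice kept much of the same order from gene to gene. OP mouse 2 was the lowest of the 6 mice in 10 of the 10 genes, and OP mouse 3 was the highest OP mouse in 9 of them, the exception being *Retnla*, where OP mouse 1 was highest. In the OR group, mouse 2 was the highest in 5 genes and mouse 3 in 4. The FPKM of the 10 genes summed to 17.6, 11.2 and 22.6 in the OP mice and to 37.7, 43.4 and 47.2 in the OR mice. By mean level, *Retnla*, *Csf1r*, *Cd68* and *Csf1* were the 4 highest genes in that order in both groups. *Mrc1* (2.69 ± 0.652), *Folr2* (2.53 ± 0.892), *Adgre1* (2.36 ± 0.721), *F13a1* (2.34 ± 0.401) and *Cd163* (1.95 ± 0.437, all FPKM, SD, n = 3) followed in OR mice, each within 1 SD of its neighbours. *Cx3cr1* was the last of the 10 in OR mice (1.63 ± 0.341 FPKM) but the fifth in OP mice (1.09 ± 0.564 FPKM).

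The mean of every gene was lower in OP mice, and the 10 log2 fold changes had a median of -0.91 against -0.10 for the 13520 genes tested. The groups were free of overlap in 8 of the 10, whereas 6.81% of the genes tested had every OP mouse below every OR mouse and 1.63% every OP mouse above. By limma-trend with Benjamini-Hochberg adjustment over all genes tested, 0 of the 10 were called at an adjusted p below 0.2 with a linear fold of 1.2 or more, or 0.83 or less. At an unadjusted p below 0.05 the number was 9 of the 10. Over all genes, 0.0222% were called lower and 0% higher, and 3.53% were lower and 0.503% higher at an unadjusted p below 0.05. Since the 10 genes were picked for this contrast, nothing is read from these counts. All 10 passed the filter of at least 0.5 FPKM in at least 3 mice, but *F13a1*, *Cd163*, *Folr2* and *Adgre1* passed through the OR mice, with only 1 or 2 OP mice at 0.5 or above. Leaving out single mice put the median of the 10 between -1.11 and -0.73, and without OP mouse 3 all 10 genes were free of overlap.

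**Figure D2:**
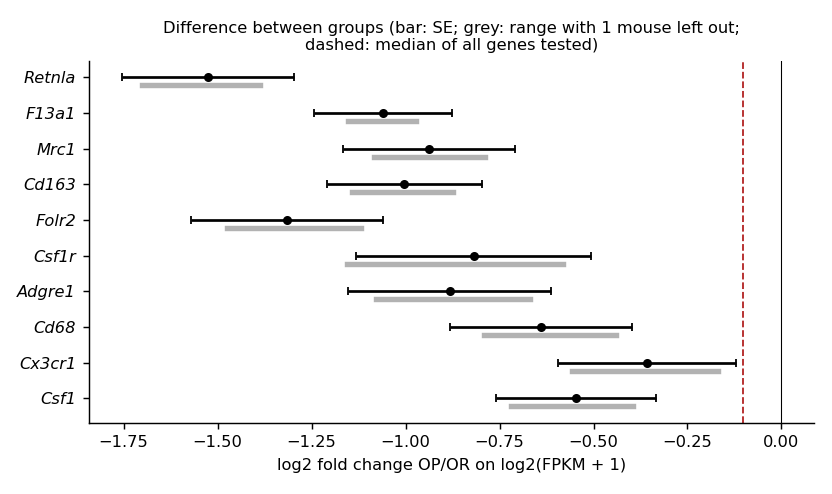
Log2 fold change OP/OR of each macrophage gene on the log2(FPKM + 1) scale (point) with its standard error (black bar), the range when 1 mouse was left out (grey bar) and the median of all genes tested (dashed line, -0.10). Each of the 10 points lies to the left of the dashed line, from -1.53 in *Retnla* to -0.36 in *Cx3cr1*.

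The promoters of *Retnla*, *Folr2* and *F13a1*, the genes with the 3 lowest log2 fold changes, are shown because their expression differed most on that scale and *Retnla* is a known target of STAT6. Each sequence is the 250 bases before a RefSeq transcription start on GRCm38.p6, 5′ to 3′ on the strand of the gene. Capitals mark matches, on either strand, to AGGAAGT (a core bound by PU.1, the factor that defines macrophages), to TTC and GAA with 4 bases between them (the spacing bound by STAT6) and to TTGC and AA with 2 bases between them (part of the site of C/EBP factors). AGGAAGT on the opposite strand reads ACTTCCT. These letters were chosen after the promoters and the expression values had been seen.

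*Retnla* (chr16:48842359-48842608, plus strand): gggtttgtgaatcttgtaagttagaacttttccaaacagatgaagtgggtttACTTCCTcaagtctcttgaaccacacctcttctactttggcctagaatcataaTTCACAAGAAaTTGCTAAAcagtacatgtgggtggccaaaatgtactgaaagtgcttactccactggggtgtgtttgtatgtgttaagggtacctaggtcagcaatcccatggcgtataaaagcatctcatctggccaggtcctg

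*Folr2* (chr7:101857191-101857440, minus strand): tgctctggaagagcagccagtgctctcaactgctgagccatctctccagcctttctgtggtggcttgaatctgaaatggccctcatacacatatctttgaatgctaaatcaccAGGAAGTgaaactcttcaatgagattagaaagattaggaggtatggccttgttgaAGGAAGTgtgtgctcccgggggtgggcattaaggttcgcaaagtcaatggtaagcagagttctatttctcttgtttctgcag

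*F13a1* (chr13:37049214-37049463, minus strand): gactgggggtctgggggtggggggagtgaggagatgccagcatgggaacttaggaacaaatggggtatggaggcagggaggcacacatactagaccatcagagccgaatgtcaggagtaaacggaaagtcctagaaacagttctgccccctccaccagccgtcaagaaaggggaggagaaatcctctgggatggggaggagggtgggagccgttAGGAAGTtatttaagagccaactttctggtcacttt

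The *Retnla* promoter held a match to all 3 motifs, with the STAT6 letters at 145 to 136 bases and the C/EBP letters at 134 to 127 bases before the start. *Folr2* held AGGAAGT at 2 places, ending 131 and 76 bases before the start, and *F13a1* held it once, ending 30 bases before the start. Both of these genes have another start, whose 250 bases held no match to the 3 motifs, and only the start with a match is shown. Promoter entries were found for 8 of the 10 genes, with 10 starts in all, and not for *Csf1r* and *Adgre1*. AGGAAGT was found in 4 of these 8 genes (*Retnla*, *F13a1*, *Mrc1* and *Folr2*), at 1 start each. It was thus at 4 of the 10 starts, and in 7.69% of 32851 mouse promoter windows of the same length. The STAT6 letters were found in 1 of the 8 genes, *Retnla*, and in 5.85% of all windows, and the C/EBP letters in *Retnla* and *Cd68* and in 9.56% of all windows. The matches do not overlap each other, and a match is a run of letters, not a bound site.

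Within a mouse, the ratio of a gene to *Csf1r* does not depend on how the mice were scaled to each other. This comparison was chosen after the values had been seen. *C1qa*, which encodes a chain of complement C1q made largely by macrophages, had 5.46, 4.995 and 4.95 times the FPKM of *Csf1r* in OP mice and 5.21, 5.87 and 4.97 times in OR mice. Both genes therefore stood in nearly the same proportion in all 6 mice, although *Csf1r* itself ran from 2.14 to 7.87 FPKM. *Cd163* was 0.157, 0.103 and 0.129 of *Csf1r* in OP mice and 0.299, 0.311 and 0.253 in OR mice, so the groups were apart in this ratio too.

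*Folr2* was 0.157, 0.0374 and 0.122 of *Csf1r* in OP mice and 0.339, 0.266 and 0.539 in OR mice. *F13a1* was 0.211, 0.192 and 0.134 in OP mice and 0.334, 0.301 and 0.411 in OR mice. *Mrc1* differed least of these 4 genes, at 0.269 ± 0.0511 in OP and 0.395 ± 0.0398 in OR mice (SD, n = 3 each). In all 4 the OP mice lay below the OR mice without overlap, whereas 0.281% of the genes tested had every OP mouse below every OR mouse in their ratio to *Csf1r*. Since the genes and the ratio were chosen with the values known, nothing is read from this count.

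The other genes did not separate downwards in this way. *Retnla* was 2.05, 1.72 and 0.624 times *Csf1r* in OP mice and 2.45, 1.49 and 2.65 times in OR mice, and the groups overlapped, as they did in *Adgre1*, *Cd68* and *Csf1*. *Cx3cr1* went the other way, at 0.361, 0.266 and 0.284 of *Csf1r* in OP mice and 0.252, 0.257 and 0.213 in OR mice, without overlap but with a small gap, and 28.9% of the genes tested had every OP mouse above every OR mouse in this ratio. With the mean of *C1qa*, *C1qb* and *C1qc* in place of *Csf1r*, the same 4 genes were below without overlap, *Cx3cr1* was above without overlap, and the other 5 overlapped. For that reference 0.259% of the genes tested were below and 47.7% above in every OP mouse.

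**Figure D3:**
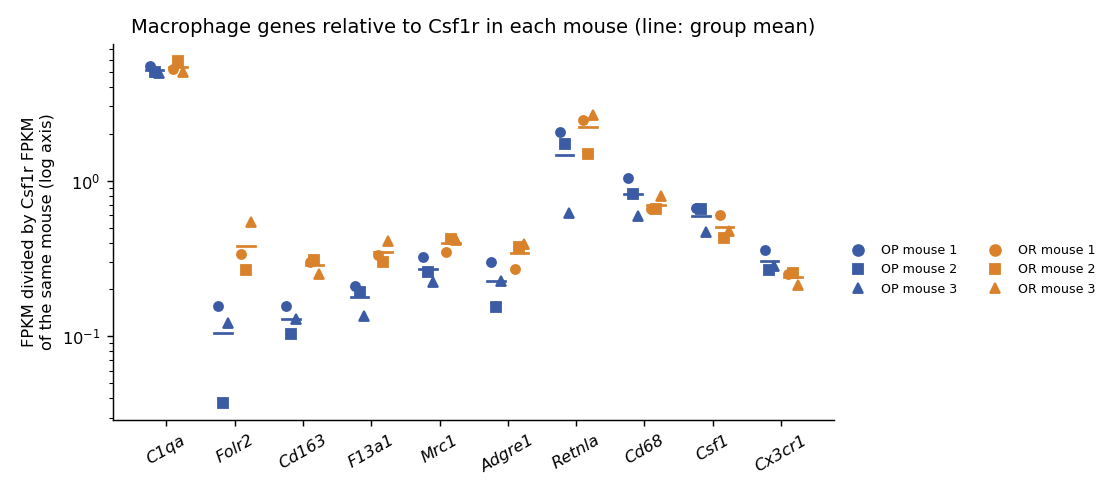
FPKM of *C1qa* and of 9 of the macrophage genes divided by the FPKM of *Csf1r* of the same mouse, on a log axis, with OP mice in blue, OR mice in orange and a line at the group mean. *C1qa* lies between 4.95 and 5.87 in all 6 mice, *Folr2*, *Cd163*, *F13a1* and *Mrc1* are lower in every OP mouse, and *Cx3cr1* is higher in every OP mouse.

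The rest of the macrophage programme was followed in 8 further lists of 95 genes, of which 93 were in the file and 72 passed the filter. No gene of these lists was called in either direction by limma-trend with Benjamini-Hochberg adjustment (lowest adjusted p = 0.582), and at an unadjusted p below 0.05 19 of the 72 were lower in OP mice and 0 were higher. Over all genes tested, 3.53% were lower and 0.503% higher at that threshold. The lists were chosen with earlier results known, so nothing is read from this count. Of the 19, *Cd209f*, *Fcgr1*, *Fcrls*, *Igf1* and *Il1b* (5 genes) passed the filter with the help of the OR mice, where they are high. For these 5, passing the filter is not independent of the difference. With at least 1 FPKM in all 6 mice the 19 fell to 9, and without OP mouse 3 they became 32. These p-values measure the spread between the mice sequenced.

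Among the 16 other macrophage markers, 13 were lower in OP mice, 5 of them with an unadjusted p below 0.05, for a list median of -0.47 (log2). These 5 were *Fcgr3*, *Fcgr1* and the 3 C1q genes. *C1qb* measured 13.4, 9.80 and 22.5 FPKM across OP mice against 26.4, 32.7 and 29.8 FPKM across OR mice, with a log2 fold change of -0.99 (standard error 0.28; limma adjusted p = 0.864). *C1qa* differed by a log2 fold of -1.03 (standard error 0.35; limma adjusted p = 0.945), and *Fcgr3*, an Fc receptor for IgG, of -1.08 (standard error 0.28; limma adjusted p = 0.798). In contrast, *Ctss*, a lysosomal protease that had the highest mean of the list, had 316 ± 47.0 FPKM in OP and 264 ± 46.0 FPKM in OR mice (SD, n = 3 each), and *Lyz2*, the lysozyme of macrophages and other myeloid cells, had 105 ± 59.0 and 101 ± 17.1 FPKM (SD, n = 3). Without OP mouse 3 the median of the list was -0.93 and without OP mouse 2 it was -0.15.

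Of the 17 resident and perivascular macrophage genes, 13 passed the filter, 11 of which had a lower OP mean, 8 with an unadjusted p below 0.05, for a list median of -0.65 (log2). *Ccl8*, a chemokine of resident macrophages, measured 1.95, 7.72 and 2.59 FPKM across OP mice against 18.5, 24.8 and 22.5 FPKM across OR mice, and its log2 fold change was -2.33 (standard error 0.39; limma adjusted p = 0.582). *Pf4*, a chemokine of platelets and of macrophages of this kind, had 1.72, 0.79 and 3.00 FPKM in OP mice and 7.79, 6.78 and 10.04 FPKM in OR mice (log2 fold change -1.76, standard error 0.31; limma adjusted p = 0.620). Relative to *Csf1r*, *Pf4* was 0.496 ± 0.123 in OP and 1.25 ± 0.342 in OR mice (SD, n = 3 each), again without overlap. *Stab1*, a scavenger receptor shared with lymphatic and sinusoidal endothelium, differed by a log2 fold of -0.90 (standard error 0.20; limma adjusted p = 0.710). *Lyve1*, 1 of the 8, had 1.99, 1.68 and 2.54 FPKM in OP mice and 4.20, 8.58 and 11.8 FPKM in OR mice (limma adjusted p = 0.710). What part lymphatic endothelium had in the difference of *Lyve1* was not tested. Unlike *Pf4*, the genes *Ccl8*, *Stab1* and *Lyve1* of this list overlapped between the groups relative to *Csf1r*. So did *Clec10a* and *Mgl2* of the alternative activation list. The ratio of *Ccl8* to *Csf1r* was 3.61 in OP mouse 2, above the 3.22, 3.15 and 3.40 of the OR mice. *Selenop*, the selenium transport protein, which epithelium also makes, had the highest mean of the list and lay at 973 ± 440 FPKM in OP and 741 ± 171 FPKM in OR mice (SD, n = 3 each). The list was drawn up with earlier results of these mice known, so its direction is not independent evidence. With no filter, the median of the list was -0.38.

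The alternative activation genes had mixed directions. Of 13 genes, 8 passed the filter, 5 were lower in OP mice, and the median log2 fold change was -0.10. Without OP mouse 1 this median was -0.24, against -0.01 for all genes, and without OP mouse 3 it was -0.22, against -0.18 for all genes. *Clec10a* and *Mgl2*, which encode galactose-binding lectins, had the lowest p of the list. *Clec10a* had 1.33, 0.73 and 0.92 FPKM in OP mice and 2.81, 3.44 and 2.25 FPKM in OR mice (log2 fold change -0.94, standard error 0.20; limma adjusted p = 0.710). *Mgl2* had 1.64, 0.69 and 1.32 FPKM in OP mice and 2.19, 3.24 and 2.74 FPKM in OR mice (log2 fold change -0.76, standard error 0.23; limma adjusted p = 0.933). *Tgm2*, a transglutaminase also made by endothelium, differed by a log2 fold of -0.47 (standard error 0.16; limma adjusted p = 0.945), and these 3 were the genes of the list with an unadjusted p below 0.05. The classical markers *Arg1* and *Chil3*, named here after their values had been seen, were low in all mice, at 0 to 0.98 FPKM and 0 to 0.15 FPKM. *Klf4*, which had the highest mean of the list and is a factor of differentiated epithelium as well, had 259 ± 111 FPKM in OP and 205 ± 42.3 FPKM in OR mice (SD, n = 3 each).

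Upstream, 6 of the 9 genes of the interleukin 4 and 13 pathway in the file passed the filter, with a median log2 fold change of -0.12. *Il33*, an alarmin that stromal cells make and that acts ahead of these interleukins, measured 0.72, 1.16 and 0.68 FPKM across OP mice against 2.61, 1.67 and 2.13 FPKM across OR mice, with a log2 fold change of -0.76 (standard error 0.20; limma adjusted p = 0.798). It was the 1 gene of this list with an unadjusted p below 0.05. The signalling genes were close to each other in the groups, with *Stat6* at 40.6 ± 9.90 FPKM in OP and 42.8 ± 6.23 FPKM in OR mice (SD, n = 3 each). *Il13* was listed at 0 in the 3 OP mice and had 0.14, 0.13 and 0 FPKM in the OR mice, and *Il4* was not analysed here.

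In the list of CSF1 receptor signalling and lineage factors, 11 of 12 genes passed the filter and the median log2 fold change was -0.08. *Il34*, the second ligand of CSF1R, had 3.95, 3.30 and 3.74 FPKM in OP mice and 2.41, 3.61 and 2.36 FPKM in OR mice, so the groups overlapped and its mean was lower in OR mice, unlike that of *Csf1* (log2 fold change 0.31, standard error 0.20; limma adjusted p = 0.945). *Cx3cl1*, the ligand of CX3CR1, had a mean of 38.7 ± 9.21 FPKM in OP and 41.5 ± 6.78 FPKM in OR mice (SD, n = 3 each). *Cebpb*, a factor that alternative activation uses, was the 1 gene of the list with an unadjusted p below 0.05 (log2 fold change -0.67, standard error 0.23; limma adjusted p = 0.945).

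Of the 13 classical activation genes, 8 passed the filter, with a median log2 fold change of -0.26 that was -0.09 without OP mouse 1 and -0.41 without OP mouse 3. *Il1b*, an inflammatory cytokine, measured 0.72, 0.36 and 0.67 FPKM across OP mice against 1.65, 0.88 and 1.34 FPKM across OR mice (log2 fold change -0.53, standard error 0.20; limma adjusted p = 0.945), and was the 1 gene of the list with an unadjusted p below 0.05. *Cd38*, which had the highest mean of this list, had 67.4 ± 12.2 FPKM in OP and 72.5 ± 21.96 FPKM in OR mice (SD, n = 3 each). Among 8 monocyte genes, 6 passed the filter and 0 had an unadjusted p below 0.05 by limma, with a median of -0.19 that became 0.03 without OR mouse 2. *Plac8*, which had the highest mean of the monocyte list at 1617 ± 384 FPKM in OP and 1674 ± 319 FPKM in OR mice (SD, n = 3 each), is expressed by colon epithelium as well.

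The paralogs of the 10 genes overlapped between the groups. *Retnlb*, the RELM gene of goblet cells, measured 44.2, 447 and 3.93 FPKM across OP mice against 27.3, 172 and 62.4 FPKM across OR mice, and *Retn*, which encodes the adipocyte hormone resistin, had 3.50, 0 and 4.70 FPKM in OP mice and 26.3, 0.99 and 9.82 FPKM in OR mice. In both the mice of a group differed more than 3-fold and the groups overlapped. *Folr1* (1.12 ± 1.02 and 1.09 ± 0.291 FPKM, SD, n = 3) and *Mrc2* (1.10 ± 0.592 and 1.64 ± 0.249 FPKM, SD, n = 3) are given as the OP and then the OR mean. *Retnlg* was between 0 and 0.19 FPKM. The 4 paralogs tested all had log2 fold changes below 0, with a median of -0.45, from -1.51 (standard error 1.01) in *Retn* to -0.07 in *Folr1*. By limma, 0 of the 4 had an unadjusted p below 0.05, and the difference between a gene and its paralog was not tested.

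**Figure D4:**
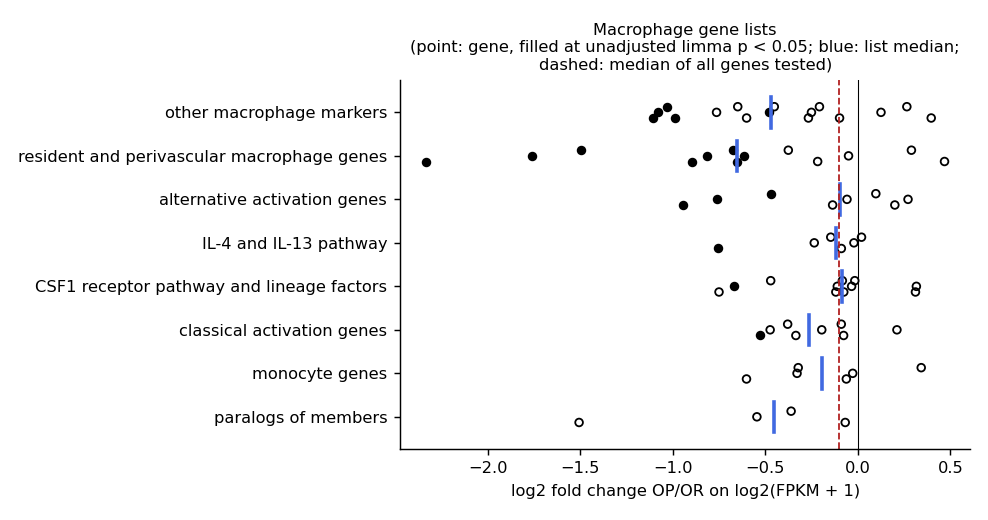
Log2 fold change OP/OR of each tested gene of the 8 macrophage lists (open point, or filled at an unadjusted limma p below 0.05), with the list median in blue and the median of all genes tested as a dashed line. The filled points all lie on the side of lower expression in OP mice and 13 of the 19 belong to the other macrophage markers and the resident list, whose medians are -0.47 and -0.65.

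Stromal and endothelial markers also had lower means in OP mice, and 0 of them were called by limma at an adjusted p below 0.2, while 5 fibroblast, 6 blood endothelium and 4 lymphatic endothelium markers had an unadjusted p below 0.05. Over all genes tested, 3.53% were lower in OP mice at that threshold, and these lists too were chosen with earlier results known. Of the markers with an unadjusted p below 0.05, *Col14a1*, *Pi16*, *Kdr*, *Flt4* and *Mmrn1* passed the filter through the OR mice. Only 1 or 2 OP mice were at 0.5 FPKM or above in them, so passing the filter is not independent of the difference. All 7 fibroblast markers had lower means in OP mice and a median of -1.14 (log2), of which *Col14a1* (-1.14, standard error 0.22) and *Dcn* (-2.03, standard error 0.39) had the lowest p (limma adjusted p = 0.624 for both). The summed FPKM of the 7 was 51.1 to 113 in OP mice and 163 to 394 in OR mice. For 6 blood endothelium markers the median was -0.85, with *Cdh5* at -0.84 (limma adjusted p = 0.933) and *Pecam1* at -0.72 (limma adjusted p = 0.945), and the summed FPKM was 11.3 to 23.9 in OP mice and 24.0 to 46.4 in OR mice. For the 5 lymphatic endothelium markers tested the median was -0.78, with *Mmrn1* at -1.41 (limma adjusted p = 0.890) and *Ccl21a* at -1.49 (limma adjusted p = 0.929), and the summed FPKM of all 6 listed was 20.1 to 38.7 in OP mice and 38.2 to 104 in OR mice. OP mouse 3 had the highest sum of the OP mice in all 3 lists, as it did over the 10 macrophage genes. What part stroma and vessels had in the difference of the macrophage genes was not tested.

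Of 6 adipocyte markers 5 had a lower OP mean, and the list median of -0.83 (log2) ran from -1.53 without OP mouse 3 to -0.22 without OP mouse 2. OP mouse 2 was the lowest mouse here as in the macrophage genes, but the order of the others differed. The summed FPKM of the 6 was 141, 22.2 and 136 in OP mice and 346, 73.3 and 226 in OR mice, so OR mouse 2 was below OP mice 1 and 3. OR mouse 2 had the highest *Mrc1*, *Cd163*, *Csf1r*, *Adgre1* and *Cx3cr1* of all mice. In *Retnla*, however, it was the lowest OR mouse (14.1, 11.8 and 17.5 FPKM), as in the adipocyte sum. What part fat tissue had in the difference of the macrophage genes was not tested. The adipocyte marker *Cfd* differed by a log2 fold of -2.89 (standard error 1.19; limma adjusted p = 0.945). *Adipoq*, *Plin1*, *Lep* and *Cfd* were at 0 in OP mouse 2. Of the eosinophil markers, *Epx* was between 0 and 0.13 FPKM, and *Prg2* had 0.25, 0 and 0.92 FPKM in OP mice and 1.22, 1.21 and 1.03 FPKM in OR mice (limma adjusted p = 0.945). *Prg2* passed the filter through the OR mice, with only 1 OP mouse at 0.5 FPKM or above. The 4 dendritic cell markers tested had a median of 0.00, and 0 had an unadjusted p below 0.05 by limma. Of 4 small intestine markers 2 passed the filter, *Fabp6* and *Sis*, with a median of -1.52. *Fabp6*, the bile acid binding protein of the ileum, had 7, 1.03 and 35.1 FPKM in OP mice and 74.2, 11.2 and 45.9 FPKM in OR mice (limma adjusted p = 0.945), so the groups overlapped and OP mouse 2 was lowest. Epithelial markers were higher in the mean in OP mice in 6 of 6 genes with a median of 0.18, and 0 of them had an unadjusted p below 0.05 by limma.

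**Figure D5:**
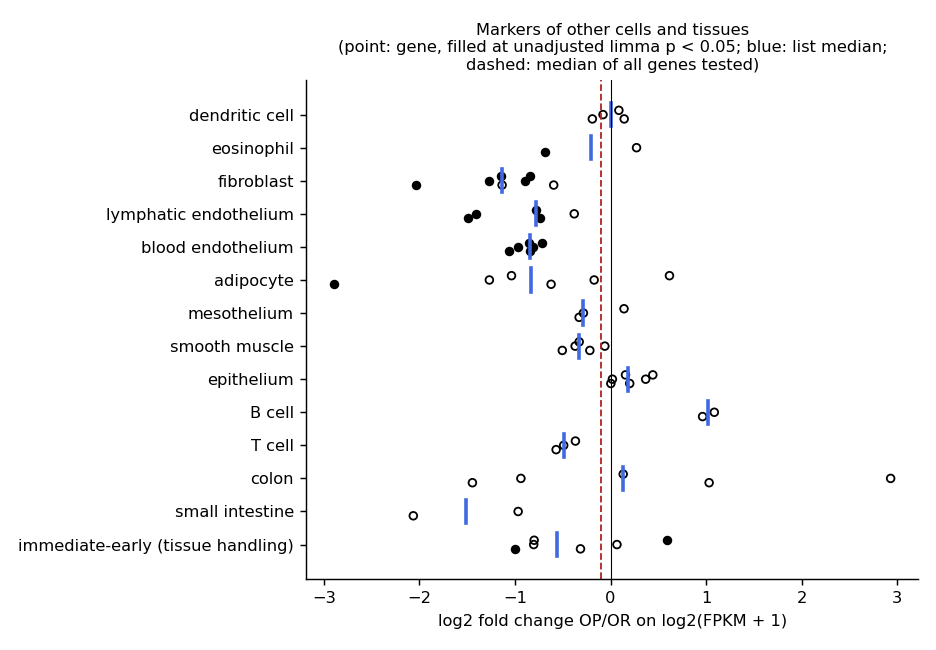
Log2 fold change OP/OR of markers of other cells and tissues, with open points, filled points, list medians and the dashed line as for the macrophage lists. Fibroblast and endothelial markers lie to the left, at medians between -1.14 and -0.78, adipocyte and small intestine markers do so at -0.83 and -1.52, and epithelial markers lie near 0 at 0.18.

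Outside the 10 genes, the profiles over the 6 mice nearest to their mean profile were those of *Galr2*, *Cd300a*, *Serpinf1*, *F2r* and *Htra3*. Nearness was the Euclidean distance between z-scored log2(FPKM + 1) values, computed for 12454 genes with a mean of at least 1 FPKM, and was 0.238 to 0.374 for these 5. *Cd300a*, an inhibitory receptor of myeloid cells, measured 0.94, 0.54 and 1.39 FPKM across OP mice against 1.62, 2.31 and 2.06 FPKM across OR mice. It repeated the order seen in the macrophage genes, with OP mouse 2 lowest and OP mouse 3 the highest of its group. *F2r*, which encodes the thrombin receptor, had 2.47, 1.51 and 4.05 FPKM in OP mice and 4.65, 6.62 and 7.07 FPKM in OR mice. With so many genes and only 6 mice, near profiles are to be found for any pattern, and the likeness is given as a description.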

How the data were processed

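Colon RNA of 3 OP and 3 OR mice was sequenced as mRNA libraries, 1 per mouse. Per the study's methods the authors filtered reads with SOAPnuke, mapped them with Bowtie2 to GRCm39 transcripts and quantified genes with RSEM. The labels give other versions of both tools and a gene set built by the sequencing provider, and the submitters' processing notes name HISAT2 2.0.4. The deposited values are FPKM to 2 decimals. Read totals are unknown, so errors cover the spread between mice only. Steps that a single read would leave in low values were looked for, but 22.9% to 50.9% of low genes lay within 0.1 (log2) of a common ratio, so reads were not recovered.

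The 10 genes and all lists were chosen with earlier results of these data known. Genes with at least 0.5 FPKM in at least 3 mice (13520) were compared on log2(FPKM + 1) by limma-trend in R 4.3.3 (limma 3.58.1), the group being the only term, and p-values were Benjamini-Hochberg adjusted over all genes tested. Fold changes on this scale understate those of low genes. DESeq2, the authors' tool, needs counts and was not run. The fit was tested on simulated data with 200 changed genes among 13520, each drawn with its own mean and spread. At an adjusted p below 0.2, 58.0% of genes with a log2 change of 1 were recovered, and 19.4% of calls were false. At a log2 change of 2 these shares were 92.0% and 20.7%, so a gene not called may still differ. Named are the 10 genes, their paralogs, *Il34*, *Cx3cl1*, in each macrophage list up to 3 genes with the lowest unadjusted p below 0.05 and the gene with the highest mean, in each other list up to 2 such genes, and the 5 nearest profiles. *Lyz2*, *C1qc*, *Lyve1*, *Arg1*, *Chil3*, *Il13*, *Fcgr1*, *Cd209f*, *Fcrls*, *Igf1*, *Epx*, *Pi16*, *Kdr*, *Flt4*, *Fabp6*, *Sis*, *Adipoq*, *Plin1*, *Lep*, *Cd79a* and the colon markers given were named after their values had been seen. Promoters are from RefSeq (GRCm38.p6), matched by symbol.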

Additional observations from a re-analysis of the deposited data

How the results depend on the processing

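The 10 macrophage genes were lower in OP mice under all 13 alternatives run, 6 of which left out 1 mouse, wherever they passed the filter. For the 8 genes free of overlap, leaving out 1 mouse could not change this direction. Using no filter, limma without trend or pairing by mouse number left the fold changes of the 10 genes as they were. These runs are therefore no test of the direction. With at least 1 FPKM in all 6 mice only 4 of the 10 were tested, all 4 lower. The median of the 10 was -1.4941 with a pseudocount of 0.1, against -0.91 with 1, since a smaller pseudocount widens the differences of low genes. Median-of-ratios scaling moved the median of all genes from -0.10 to 0.01 and that of the 10 genes to -0.8341, and left 7 of them without overlap.

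Over all genes, 3 were lower in OP mice at an adjusted p below 0.2. The count was 0 with a pseudocount of 0.1, no filter, at least 1 FPKM in all 6 mice, median-of-ratios scaling or rescaling to TPM, 2 with limma without trend, and 0 to 1 with each mouse left out. It was 0 higher under every alternative run. At an unadjusted p below 0.05 the lower count was 317 with at least 1 FPKM in all 6 mice and 223 to 1094 with each mouse left out, and the higher count was 133 with no filter, 154 with median-of-ratios scaling and 24 to 178 with each mouse left out. Adding the replicate block (pairing by mouse number) left 0 genes lower at an adjusted p below 0.2. Same-numbered mice are different animals, and their deviations from the group mean had correlations of -0.144, -0.157 and 0.071. Those of mice with unlike numbers ran from -0.464 to 0.537. With 3 mice per group these deviations sum to 0 in each group, so the correlations cannot decide whether the numbers pair the mice.

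Of the macrophage list genes, 19 were lower at an unadjusted p below 0.05, 9 with at least 1 FPKM in all 6 mice and 13 to 32 with each mouse left out. By limma over all 6 mice 0 were higher, against 1 with median-of-ratios scaling (*Csf2ra*) and 0 to 2 with each mouse left out (*Mertk* and *Selenop* without OP mouse 2). The resident list had a median of -1.3380 with a pseudocount of 0.1, -0.3756 with no filter, -0.2963 with at least 1 FPKM in all 6 mice and -0.8578 after rescaling to TPM. The classical list had -0.5175 and the monocyte list -0.4994 with a pseudocount of 0.1, and -0.0769 and -0.3318 with at least 1 FPKM in all 6 mice. With each mouse left out, the median ran from -0.9328 to -0.15 for the other macrophage markers, from -0.3216 to 0.0024 for the interleukin pathway, from -0.3265 to -0.0079 for the CSF1 receptor list and from -0.2537 to 0.0321 for the monocyte list. After median-of-ratios scaling the interleukin pathway had 0.0066 and the CSF1 receptor list 0.0498. The causes were not tested, beyond the lists holding fewer or more genes under another filter.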

Other observations

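Lymphocyte and handling-related genes were measured beside the macrophage genes. The T cell markers *Cd3e*, *Cd4* and *Cd8a* summed to 4.19, 6.13 and 15.3 FPKM in OP mice and to 11.4, 11.5 and 12.9 FPKM in OR mice, so OP mouse 3 was the highest and the other OP mice the lowest. Of 6 immediate-early genes, which respond to tissue handling among other stimuli, 4 were lower and 2 higher in OP mice. Their median log2 fold change was -0.56, or -0.15 without OR mouse 1, and what part handling had was not tested. *Fosb* and *Jun*, both of this list, went in opposite directions. *Fosb* had 0.74, 1.58 and 0.91 FPKM in OP mice and 4.28, 2.35 and 2.91 FPKM in OR mice (log2 fold change -1.004), and *Jun* had 111, 86.6 and 59.6 FPKM in OP mice and 55.9, 55.7 and 52.5 FPKM in OR mice (log2 fold change 0.60). Neither passed the adjusted threshold of limma. *Vsig4*, a receptor of some resident macrophages that fell under the filter, was listed at 0 in the 3 OP mice and had 0.05, 0.16 and 0.17 FPKM in the OR mice.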
